A study of Mus musculus with 6 samples.

Results

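The genes described here are the activation-induced transcription factors of the NR4A and EGR families together with NAB1 and NAB2, the co-repressors of the EGR proteins. Of 8 genes chosen by name (Nr4a1, Nr4a2, Nr4a3, Egr1, Egr2, Egr3, Nab1 and Nab2), the rows of 7 were found in a table of 16381 genes, all of them except Nr4a3, and all 7 entered the test of 14419 genes. The samples were activated ILC2s (aILC2s), group 2 innate lymphoid cells sorted from the lungs of WT BALB/c mice after intranasal IL-33 at 0.5 µg per day for 3 days. The methods describe the mice as female and 6 to 8 weeks old and the sorted cells as over 95% pure, and the sex-linked transcripts given below go against that sex in 4 of the 6 libraries. The aILC2s were cultured for 24 h with 250 µM melatonin, the pineal hormone, in 3 samples, or with DMSO as vehicle in the other 3, labelled Control, and the RNA of each sample was sequenced in bulk. Both groups share the strain, the IL-33 challenge, the sort and the culture, and no sample of unchallenged or uncultured ILC2s enters the comparison. The labels do not say whether the 3 samples of a group came from separate mice or cultures, so the p-values measure only the spread between these samples, which may be technical except where sex-linked transcripts, given below, show that libraries came from different mice.

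NR4A proteins are orphan nuclear receptors, nuclear receptors that act without a known circulating ligand and whose activity follows their amount. EGR proteins are zinc finger factors. Genes of both families are early response genes: antigen receptors, cytokines, calcium and cAMP switch them on within minutes to hours through ERK, SRF, MEF2, CREB and NFAT, and their transcripts are short lived. NAB1 and NAB2 bind EGR proteins and repress their target genes, and Nab2 is itself an EGR target. In T cells, NR4A proteins, EGR2 and EGR3 are known for restraint of activation, and EGR1 for its link to growth and cytokine genes.

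The levels were normalized counts, which are estimated reads per gene divided by a size factor for the sample. Estimated counts summed to between 17056267 and 20511707 per library. All 13 ILC2 markers checked were detected, and their summed level was 146869 to 155155 in the vehicle group and 113496 to 115891 with melatonin. Il2ra, the largest part of the vehicle sum, was at 50819 to 52389 there and at 21436 to 36551 with melatonin. Of the 13 markers, 2 were called higher (Il1rl1 and Rora) and 7 lower, while Gata3, Icos, Il17rb and Ptprc were not called. Markers of other cells that were called were also lower with melatonin, except Epcam. The 5 NK cell and ILC1 markers summed to 5944 to 7224 in the vehicle group, nearly all of it Gzma, and to 75.6 to 210.1 with melatonin. The 9 macrophage, monocyte and neutrophil markers summed to 1364 to 1592 and 362 to 810, and the 4 of 8 T cell markers in the table (Trac, Trbc1, Trbc2 and Trdc) to 4943 to 5365 and 1720 to 2346, while Cd4, Cd8a, Cd8b1 and Cd5 were not among the genes listed. The 2 of 5 B cell markers in the table summed to 289 to 322 and 131 to 162, and Pecam1, the 1 of 5 endothelial and fibroblast markers in the table, to 1001 to 1066 and 310.0 to 416. Epithelial markers summed to 939 to 2316 and 1058 to 1261, and mast cell and basophil markers to 5.62 to 58.8 and 1.87 to 67.4. Within the epithelial sum, Epcam was at 623, 745 and 634 with vehicle and 1230, 1016 and 1046 with melatonin. Scgb1a1 was at 95.2, 21.5 and 1045 with vehicle and 0, 0 and 1.01 with melatonin. Sftpc, Krt8 and Krt18 were also called lower, and vehicle replicate 3 was the highest library for these and for Scgb1a1. Klrb1c and Krt8 were at 0 in all 3 melatonin libraries. The part of other cells in the results below was not tested, and in bulk RNA fewer cells of a type cannot be told apart from less RNA per cell. The libraries also differed in sex-linked transcripts. Eif2s3y, on the Y chromosome, was at 1360, 1363 and 1230 in vehicle replicates 1, 2 and 3 and at 946 in melatonin replicate 1, but at 0 in melatonin replicates 2 and 3, where Xist was at 579 and 1091. Ddx3y, Uty and Kdm5d were present and absent in the same libraries as Eif2s3y, so all 3 vehicle libraries and melatonin replicate 1 go against the stated female sex. The melatonin group thus mixed libraries of both kinds, so replicate 1 came from other mice than replicates 2 and 3, and each member is given below also for melatonin replicate 1 against the 3 vehicle libraries. In each of those comparisons the melatonin group is 1 sample, which is assumed to vary like the vehicle libraries, so their p-values hold only under that assumption. Library names in the labels run in separate series for the 2 groups, and a batch that followed them cannot be told apart from the treatment.

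Sequences before annotated starts of the members are shown first, because EGR proteins bind a GC-rich site, cAMP signals act through CREB sites and ERK signals through the CArG box bound by SRF. The windows are the 250 bases before each start in the RefSeq promoter table (GRCm38.p6), used for 5 of the 7 genes and placed on GRCm39 by exact match. Of 5 starts listed for Egr2, the one nearest the canonical GENCODE start was taken. Searched on both strands were the EGR site GCGNGGGCG, the NR4A monomer site AAAGGTCA, the CREB site TGACGTCA, its core TGACG (also part of the full site) and the CArG box. Over 32851 mouse windows of the same length they were present in 4.70%, 1.34%, 1.55%, 17.8% and 1.47% respectively. The windows of the 5 genes had a GC content of 61.6% (Egr2) to 80.8% (Nab1). Those shares were not matched for GC content, so they do not give the share to expect in GC-rich windows. The stretch of the Egr2 window that lies outside the exons of the gene but within its annotated span, 243 bases at chr10:67373449-67373691 on the plus strand, holds a CArG box and 2 CREB cores, and the corresponding 180 bases of Nr4a1 at chr15:101164477-101164656 on the plus strand hold 2 of the 4 CREB cores of its window. They are shown in full because they belong to a gene called lower and a gene not called under the same treatment, with capitals marking the matches:
Egr2: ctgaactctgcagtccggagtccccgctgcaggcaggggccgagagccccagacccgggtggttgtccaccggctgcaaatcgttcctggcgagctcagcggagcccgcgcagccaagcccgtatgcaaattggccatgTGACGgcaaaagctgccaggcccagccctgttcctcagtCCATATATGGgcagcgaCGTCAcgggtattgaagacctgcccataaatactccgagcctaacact
Nr4a1: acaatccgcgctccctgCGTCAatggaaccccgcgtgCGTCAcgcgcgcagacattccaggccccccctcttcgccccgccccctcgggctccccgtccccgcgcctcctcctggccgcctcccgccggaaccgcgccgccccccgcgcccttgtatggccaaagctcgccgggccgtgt

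The EGR site was found once in the windows of Nr4a1 (chr15:101164657-101164685, plus strand) and Nr4a2 (chr2:57014071-57014099, minus strand) and 3 times in that of Nab1 (chr1:52539730-52539758, chr1:52539698-52539726 and chr1:52539627-52539655, minus strand). Each is printed with 10 bases on either side and with the EGR match in capitals, because the site is that of the EGR proteins described here, and all 5 lie inside annotated exons of their genes:
Nr4a1 site: gcgtcagtggCGCCCCCGCccctctccat
Nr4a2 site: cgcggggtgcGCGCGGGCGgcgacaatga
Nab1 site 1: gccccgcggcCGCCCACGCcgggatctgc
Nab1 site 2: actcggccgcGCGTGGGCGggagccggag
Nab1 site 3: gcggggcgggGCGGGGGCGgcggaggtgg

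No window of these 5 genes held the NR4A monomer site or the full CREB site, and the window used for Nab2 held none of the motifs searched. The RefSeq start used lies 1886 bases from the start of the canonical GENCODE transcript for Nab2 and 7769 bases for Nr4a2, and both windows lie wholly within annotated exons, so the bases before those other starts were not searched. The window of Nr4a2 held 4 CREB cores and that of Nab1 held 1. These matches describe letters only and are no evidence of binding.

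Among the NR4A receptors, Nr4a1 did not differ detectably while the much rarer Nr4a2 rose. Nr4a1 (Nur77, chr15:101151980-101172681, plus strand), widely used as a reporter of antigen receptor signals, had normalized counts of 323, 320 and 278 in vehicle replicates 1, 2 and 3 and of 292, 315 and 307 with melatonin. The melatonin values lie inside the range of the vehicle values. The log2 fold change was -0.01 (SE 0.12, n = 3 per group, 95% interval -0.28 to 0.26, adjusted p = 0.95, limma). In melatonin replicate 1 against the vehicle libraries it was -0.07 (adjusted p = 0.73). Within the melatonin group the coefficient of variation of Nr4a1 was 3.72%, lower than in all but 6.65% of the 1910 genes of like level. In the vehicle group it was 8.22%, near the median of 8.47% for those genes.

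Nr4a2 (Nurr1, chr2:56996842-57014331, minus strand), a close relative that binds the same DNA site, was at 27.1, 19.7 and 15.7 normalized counts with vehicle and at 52.3, 42.6 and 74.4 with melatonin. Every melatonin sample lay above every vehicle sample. The mean rose from 20.8 ± 5.75 to 56.4 ± 16.3 (SD, n = 3), 2.71-fold, with a log2 fold change of 1.39 (SE 0.32, 95% interval 0.67 to 2.11, adjusted p = 0.0069, limma). The estimated counts behind these values were only 15 to 29 reads with vehicle and 39 to 74 with melatonin. In melatonin replicate 1 against the vehicle libraries the log2 fold change was 1.32 (adjusted p = 0.044).

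Nr4a2 was the smaller part of the summed NR4A level. Per kilobase of transcript, the scale on which genes of different length can be compared, Nr4a1 and Nr4a2 together came to 125 ± 10.9 with vehicle and 131 ± 5.22 with melatonin (SD, n = 3). The share of Nr4a1 in that sum was 95.7%, 96.8% and 97.1% with vehicle and 91.3%, 93.2% and 88.5% with melatonin. The 2 groups of shares do not overlap. The share depends on the transcript length taken, and with the summed length of all annotated exons that of Nr4a1 was 91.81% with vehicle and 80.39% with melatonin, which makes the share of Nr4a2 larger in both groups. The log2 ratio of Nr4a1 to Nr4a2 fell by 1.40, with an exact permutation p of 0.1, the smallest that 3 samples against 3 can give, and 0.15 after adjustment over the 3 pairs of members compared this way.

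**Figure D1:**
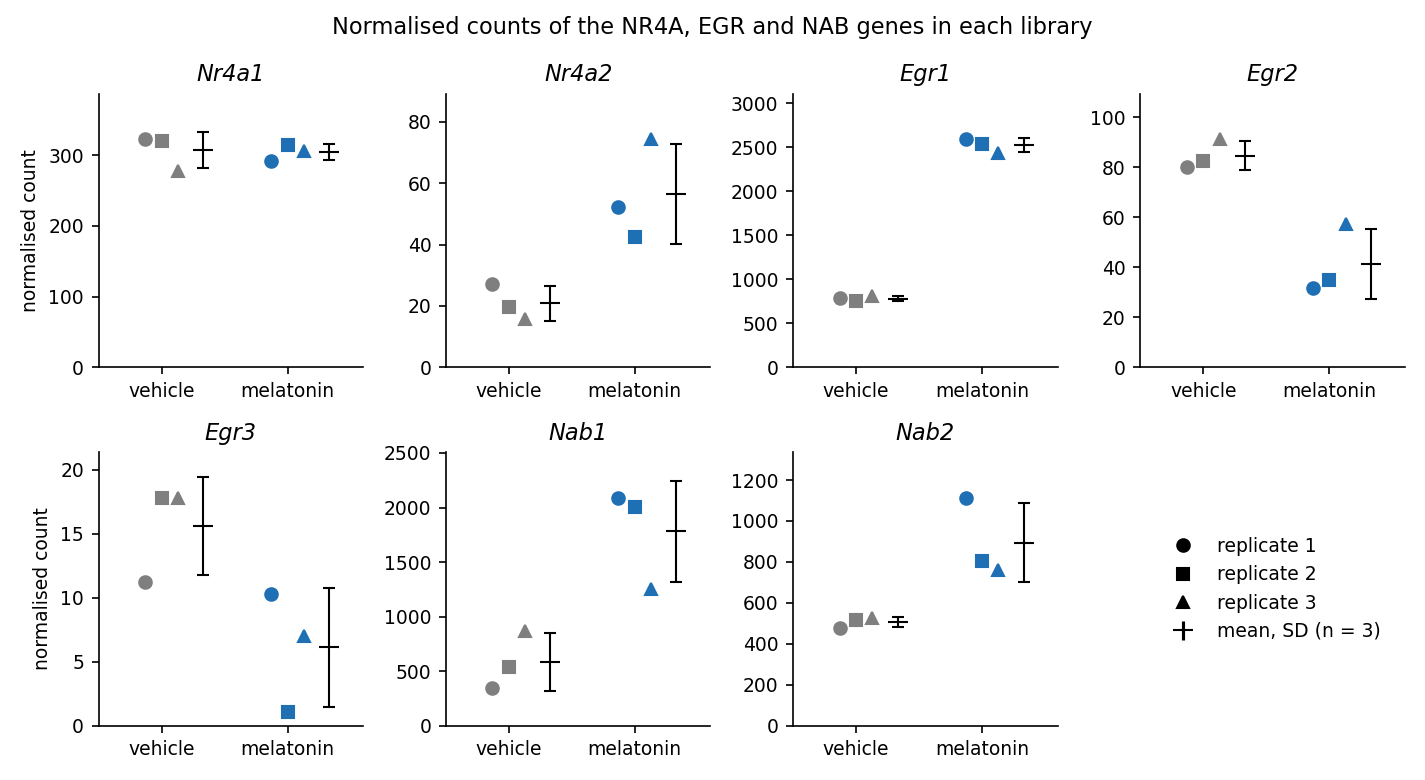
Normalized counts of the 7 genes (vertical axes, each from 0) in every vehicle and melatonin library, with the replicate given by the symbol and the mean and SD (n = 3) as a black mark to the right of each group. Nr4a1 lies at 278 to 323 in all 6 libraries, Egr1 goes from 748 to 804 up to 2432 to 2591, and Egr2 from 80.3 to 91.3 down to 31.7 to 57.3.

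In the EGR family, Egr1 rose and Egr2 fell. Egr1 (Zif268, chr18:34992876-34998049, plus strand), the most abundant member in both groups per kilobase, was at 781, 748 and 804 normalized counts with vehicle and at 2591, 2539 and 2432 with melatonin. The groups lie far apart, and the spread inside each is small, with coefficients of variation of 3.62% and 3.23%. The mean rose 3.24-fold, from 778 ± 28.2 to 2521 ± 81.4 (SD, n = 3), a log2 fold change of 1.70 (SE 0.08, 95% interval 1.52 to 1.87, adjusted p = 4.4e-06, limma). By p-value Egr1 stood at rank 15 of the 14419 genes tested, and by log2 fold change at rank 318 from the top. In melatonin replicate 1 against the vehicle libraries the log2 fold change was 1.74 (adjusted p = 0.00013).

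Egr2 (Krox20, chr10:67371305-67378018, plus strand), the EGR factor that T cells use to limit activation, was at 80.3, 82.5 and 91.3 normalized counts with vehicle and at 31.7, 34.96 and 57.3 with melatonin. All melatonin values lie below all vehicle values, with melatonin replicate 3 the nearest. The mean fell from 84.7 ± 5.83 to 41.3 ± 13.9 (SD, n = 3), 2.05-fold lower, with a log2 fold change of -1.06 (SE 0.26, 95% interval -1.66 to -0.47, adjusted p = 0.0095, limma). In melatonin replicate 1 against the vehicle libraries the log2 fold change was -1.39 (adjusted p = 0.0055).

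Egr3 (chr14:70314350-70320063, plus strand), which overlaps Egr2 in function, was near the limit of detection. Its estimated counts were 12, 19 and 17 reads with vehicle and 11, 1 and 7 with melatonin, or 11.2, 17.8 and 17.8 and 10.3, 1.09 and 7.04 normalized counts. Every melatonin value lies below every vehicle value, by less than 1 normalized count between the nearest pair. The log2 fold change of -1.50 (SE 0.65, 95% interval -2.98 to -0.03) had an adjusted p of 0.083 by limma and was not called. Melatonin replicate 1 was the one close to the vehicle samples, with a log2 fold change of -0.53 against them (adjusted p = 0.4). Without it, the log2 fold change was -1.99 and the adjusted p 0.034, past the threshold, whereas without melatonin replicate 2, the library with 1 read, it was -0.78 (adjusted p = 0.2).

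The make-up of the EGR transcripts shifted further towards Egr1. Per kilobase, the 3 genes summed to 205 ± 7.85 with vehicle and 576 ± 13.8 with melatonin (SD, n = 3). Egr1 made up 84.4% ± 0.951 of that sum with vehicle and 97.3% ± 0.910 with melatonin, and Egr2 13.9% ± 0.558 and 2.43% ± 0.877. The log2 ratio of Egr1 to Egr2 was 3.27, 3.17 and 3.12 in the vehicle samples and 6.31, 6.14 and 5.38 in the melatonin samples. The groups of ratios do not overlap, and their means differ by 2.76 (exact permutation p = 0.1, the smallest possible, 0.15 after adjustment over 3 pairs).

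**Figure D2:**
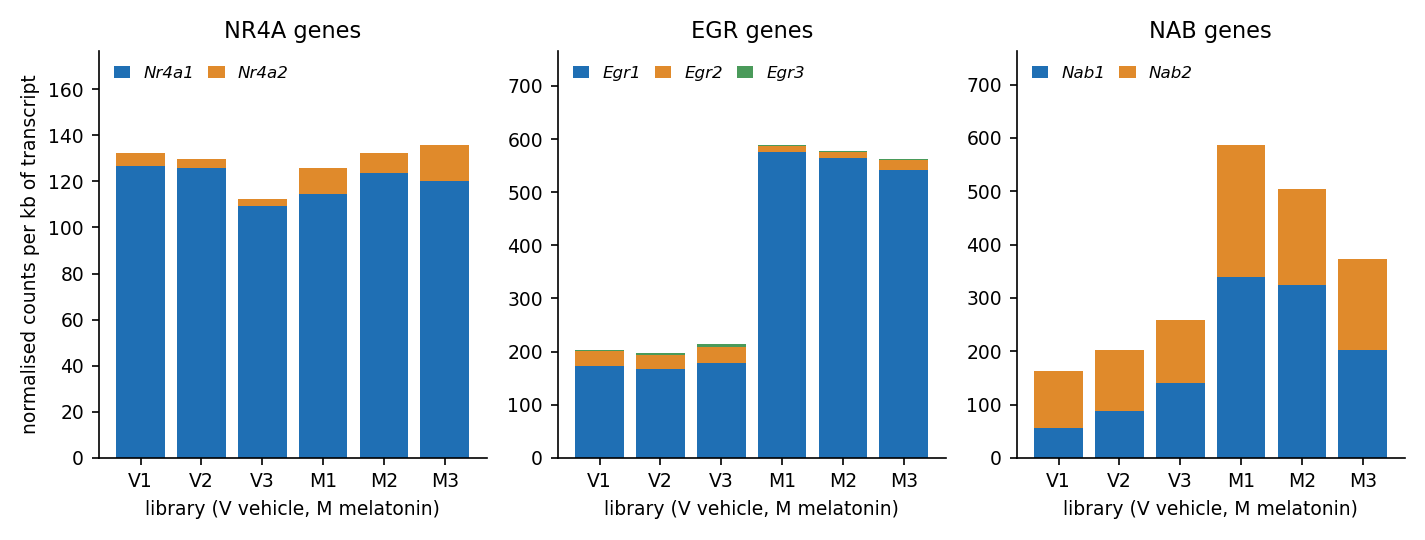
Stacked bars of normalized counts per kilobase of transcript (vertical axes, each from 0) for the NR4A, EGR and NAB genes in vehicle (V1 to V3) and melatonin (M1 to M3) libraries. The NR4A sum stays between 112 and 136, while the EGR sum goes from 198 to 214 up to 562 to 589, nearly all of it Egr1, and the NAB sum from 163 to 258 up to 372 to 587.

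Both EGR co-repressors rose. Nab1 (chr1:52494147-52539838, minus strand) was at 346, 538 and 871 normalized counts with vehicle and at 2091, 2003 and 1250 with melatonin. The groups do not overlap, with vehicle replicate 3 the highest and melatonin replicate 3 the lowest of their groups. The mean rose 3.04-fold, from 585 ± 265 to 1781 ± 462 (SD, n = 3), a log2 fold change of 1.67 (SE 0.31, 95% interval 0.96 to 2.38, adjusted p = 0.0026, limma). The coefficient of variation of Nab1 in the vehicle group, 45.4%, was higher than that of 99.3% of the 2619 genes of like level, whose median was 5.24%. In melatonin replicate 1 against the vehicle libraries the log2 fold change was 1.94 (adjusted p = 0.016).

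Nab2 (chr10:127496786-127504458, minus strand) was at 479, 517 and 526 normalized counts with vehicle and at 1114, 805 and 761 with melatonin. Melatonin replicate 1 was the highest, and all 3 melatonin samples were above all 3 vehicle samples. The mean rose 1.76-fold, from 507 ± 24.8 to 893 ± 192 (SD, n = 3), with a log2 fold change of 0.80 (SE 0.14, 95% interval 0.47 to 1.12, adjusted p = 0.0023, limma). In melatonin replicate 1 against the vehicle libraries the log2 fold change was 1.13 (adjusted p = 0.00068).

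The exons of Nab2 overlap those of Stat6, the transcription factor of IL-4 and IL-13 signals, and of Nemp1, a nuclear membrane protein, both on the opposite strand, and the library kit does not keep the strand. Reads in the shared bases therefore cannot be assigned by strand. The estimated count of Nab2 was fractional in 4 of the 6 libraries, vehicle replicates 1 and 2 (513.279 and 551.763) and melatonin replicates 2 and 3 (737.052 and 757.132), whereas that of Nr4a1 was within 0.01 of a whole number in all 6 libraries. Stat6 went from 3456 ± 174 to 4833 ± 578 normalized counts (log2 fold change 0.48, adjusted p = 0.0041) and Nemp1 from 436 ± 7.22 to 661 ± 44.1 (log2 fold change 0.60, adjusted p = 0.0013, limma, n = 3 per group). How far shared reads enter the value of Nab2 was not tested. Exons of Nr4a1 and Nab1 also overlap annotated antisense lncRNAs, Gm63180 and Gm70215, which are not in the table.

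Per kilobase, the NAB genes together rose from 208 ± 47.9 to 488 ± 108 (SD, n = 3). Nab1 made up 34.4%, 43.0% and 54.5% of this sum with vehicle and 57.6%, 64.3% and 54.3% with melatonin. These groups of shares overlap, and the log2 ratio of Nab1 to Nab2, 0.87 higher with melatonin, had an exact permutation p of 0.2. The NAB level per unit of EGR level was 0.802, 1.02 and 1.21 with vehicle and 0.996, 0.874 and 0.663 with melatonin. The ratios overlap between the groups, so no difference in it was detectable at this sample size.

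In the vehicle group the order of levels per kilobase was Egr1 (173 ± 6.27), Nr4a1 (121 ± 9.90), Nab2 (113 ± 5.53), Nab1 (94.7 ± 43.0), Egr2 (28.5 ± 1.96), Nr4a2 (4.37 ± 1.21) and Egr3 (3.59 ± 0.878; all SD, n = 3). Nr4a1, Nab2 and Nab1 do not differ beyond their spread, nor do Nr4a2 and Egr3. With melatonin the order was Egr1 (561 ± 18.1), Nab1 (288 ± 74.8), Nab2 (199.6 ± 43.0), Nr4a1 (119.5 ± 4.45), Egr2 (13.9 ± 4.68), Nr4a2 (11.8 ± 3.42) and Egr3 (1.41 ± 1.07). The mean ± SD of Nab1 and Nab2 overlap here, as do those of Egr2 and Nr4a2, while Nr4a1 now lies below both NAB genes. Among all genes tested, the mean level of Egr1 moved from the 56.7th to the 78.8th percentile, that of Nab1 from the 45.2nd to the 66.0th and that of Egr2 from the 27.0th to the 19.9th.

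Counted together, 4 of the 7 members were called higher (Nr4a2, Egr1, Nab1 and Nab2), 1 lower (Egr2) and 2 were not called (Nr4a1 and Egr3). Over all genes tested, 24.5% were called higher and 24.7% lower, 49.2% in either direction, with a median log2 fold change of -0.005. The groups did not overlap in 4 members with melatonin above, against 30.0% of all genes, and in 2 with melatonin below, against 30.3%. Calls and groups that do not overlap were thus frequent throughout this comparison.

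**Figure D3:**
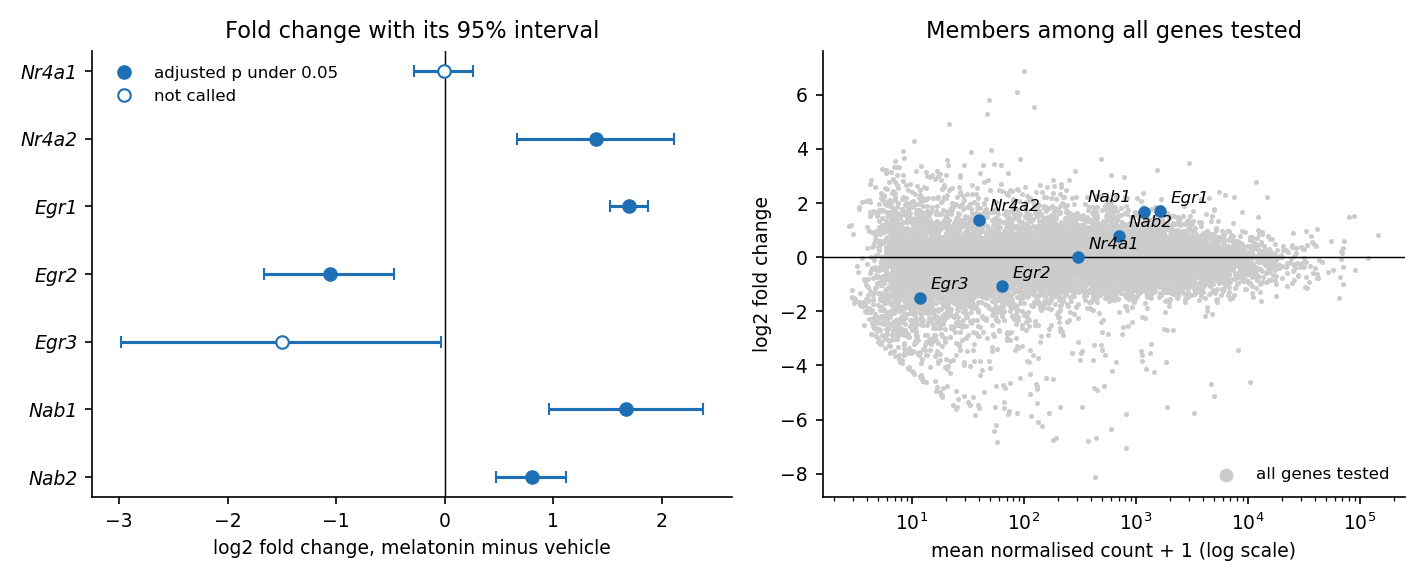
Left, log2 fold change (melatonin minus vehicle) of the 7 genes with its 95% interval, filled where the adjusted p was under 0.05; right, the same values against the mean normalized count plus 1 on a log scale, over all genes tested in grey. Egr1 has the narrowest interval (1.52 to 1.87) and Egr3 the widest (-2.98 to -0.03).

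The genes whose pattern over the 6 libraries was most like that of a member were named by Pearson's r of log2 values, among the 9989 other genes whose mean was 100 normalized counts or more. For Nr4a1 these were Orc5, a subunit of the origin recognition complex (r = 0.983), Trmt13, a tRNA methyltransferase (r = 0.966), and Mthfsl (r = 0.946). Only 2 genes had an r over 0.95 with Nr4a1. For Egr1 they were Secisbp2l (r = 0.9995), Atg5, an autophagy gene (r = 0.9994), and Aplp1 (r = 0.9991), and 1180 genes had an r over 0.95. The 6 points of each r are the same libraries in 2 treatment groups, between which the values of Egr1 do not overlap. The values of Nr4a1 did not differ detectably between the groups, so its r values describe spread between single libraries. They are the highest of 9989, and how many genes would pass 0.95 from such spread alone was not tested.

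Other genes of the pathway were counted in 5 lists that share no gene. In 3 of them 1 gene (Ccn1, Cd244a and Fasl) was at 0 in every melatonin library, and with these at the floor of 3 counts per library the medians were as given here. Of 40 other early response genes tested, 16 were called higher, 9 lower and 15 neither, with a median log2 fold change of 0.18, beside 24.5% higher, 24.7% lower and a median of -0.005 over all genes. Btg1, an antiproliferative gene, rose from 4568 ± 134 to 9019 ± 1465 normalized counts (log2 fold change 0.97, adjusted p = 0.00026, limma, SD, n = 3 per group here and below). Ier2, a small nuclear early response protein, rose from 3072 ± 14.5 to 4295 ± 129.6 (0.48, adjusted p = 0.00065). Klf2, a zinc finger factor of lymphocyte quiescence, rose from 104 ± 49.7 to 355 ± 108 (1.84, adjusted p = 0.0043).

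Among the 9 early response genes called lower, Rgs1 is the most abundant. This gene, which dampens signals of chemokine receptors, fell from 10379 ± 882 to 3558 ± 439 (log2 fold change -1.55, adjusted p = 3e-05). Myc, a driver of cell growth, fell from 2649 ± 56.7 to 1852 ± 332 (-0.53, adjusted p = 0.008). Fosl1, an AP-1 subunit, fell from 247 ± 12.2 to 33.1 ± 9.09 (-2.90, adjusted p = 5.6e-05, limma).

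The pathway that induces these genes (ERK, SRF, MEF2, CREB and calcineurin) had 37 genes tested, of which 9 were called higher, 9 lower and 19 neither, close to the shares over all genes, and a median log2 fold change of 0.01. Crem, a factor of the CREB family with activating and repressing isoforms, rose from 1048 ± 119 to 2899 ± 1127 (log2 fold change 1.41, adjusted p = 0.0012, limma), with melatonin replicate 1 the highest at 4199. Nras, a small GTPase, fell from 3835 ± 125 to 2895 ± 183 (-0.41, adjusted p = 0.0029). Camk4, a calcium-dependent kinase, fell from 1804 ± 9.72 to 1532 ± 30.5 (-0.24, adjusted p = 0.024). Elk3, an SRF partner, fell from 2365 ± 60.7 to 864 ± 87.6 (-1.46, adjusted p = 2.3e-05, limma).

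Of 16 NR4A partners, the RXR receptors and the cofactors of nuclear receptors, 6 were called higher, 3 lower and 7 neither, with a median log2 fold change of 0.14, where 24.5% of all genes were higher and 24.7% lower. Without melatonin replicate 3, 5 of the 16 were called lower, and with sample weights also 5. Bcl2, the survival protein that NR4A1 can bind outside the nucleus, rose from 1730 ± 83.5 to 2305 ± 105 (log2 fold change 0.41, adjusted p = 0.0028, limma), and Ncoa1, a coactivator, from 352 ± 90.4 to 855 ± 266 (1.25, adjusted p = 0.0037). Kdm1a, a histone demethylase, was called higher (0.97, adjusted p = 0.035) although its groups overlap, at 621, 1185 and 1741 with vehicle and 2404, 2453 and 1626 with melatonin. As in Nab1, vehicle replicate 1 was the lowest, vehicle replicate 3 the highest of its group and melatonin replicate 3 the lowest of its own. Some but not all of the other early response genes had the same order, so it was not confined to Nab1 and Kdm1a. Hdac1, a histone deacetylase, fell from 1822 ± 18.1 to 1349 ± 78.8 (-0.43, adjusted p = 0.0022, limma).

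Genes that NR4A proteins are associated with in T cells were mostly lower. Of 16 tested, 1 was called higher, 9 lower and 6 neither, and the median log2 fold change was -0.70, beside 24.7% called lower and a median of -0.005 over all genes. Il2ra, the high-affinity IL-2 receptor chain, fell from 51596 ± 785 to 31066 ± 8367 (log2 fold change -0.77, adjusted p = 0.008, limma), Batf, an AP-1 family factor, from 2984 ± 115 to 1863 ± 211 (-0.69, adjusted p = 0.00063), and Tigit, an inhibitory receptor, from 99.8 ± 3.73 to 29.8 ± 19.7 (-2.0, adjusted p = 0.013). Tox, a factor of T cell exhaustion, was called higher at an adjusted p of 0.047 (0.66), with 677, 683 and 686 in the vehicle libraries and 1714, 884 and 821 with melatonin. That call was lost when any 1 of the 3 vehicle replicates was left out and in 7 other settings. The ILC2, NK cell, T cell, B cell, myeloid and endothelial marker sums given above were also lower with melatonin. Those of epithelium and of mast cells and basophils overlapped between the groups. Il2ra is itself among the ILC2 markers checked. Whether any of these sums bears on this list was not tested.

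Of 20 genes associated with EGR2 and EGR3 in T cells, 7 were called higher, 5 lower and 8 neither, with a median log2 fold change of -0.17. Over all genes 24.5% were called higher and 24.7% lower, and the share called lower in the list was close to that in the main test. This closeness depended on the setting. Without melatonin replicate 1, 8 of the 20 genes were called lower, and with the transcript length correction also 8. Tnfrsf9, the costimulatory receptor 4-1BB, rose from 2178 ± 168 to 7728 ± 2197 (log2 fold change 1.79, adjusted p = 0.00011, limma), and Rnf128, the anergy-linked ubiquitin ligase GRAIL, from 6530 ± 271 to 9995 ± 3249 (0.57, adjusted p = 0.031). Melatonin replicate 1 was the highest for both, at 10265 and 13712. Id2, which ILC2s need for their development, fell from 22266 ± 799 to 12378 ± 742 (-0.85, adjusted p = 0.0001), Socs1 from 9140 ± 639 to 7487 ± 133 (-0.29, adjusted p = 0.014) and Socs3 from 4267 ± 119 to 1584 ± 520.0 (-1.49, adjusted p = 0.00081, limma), the last 2 being inhibitors of cytokine signals.

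**Figure D4:**
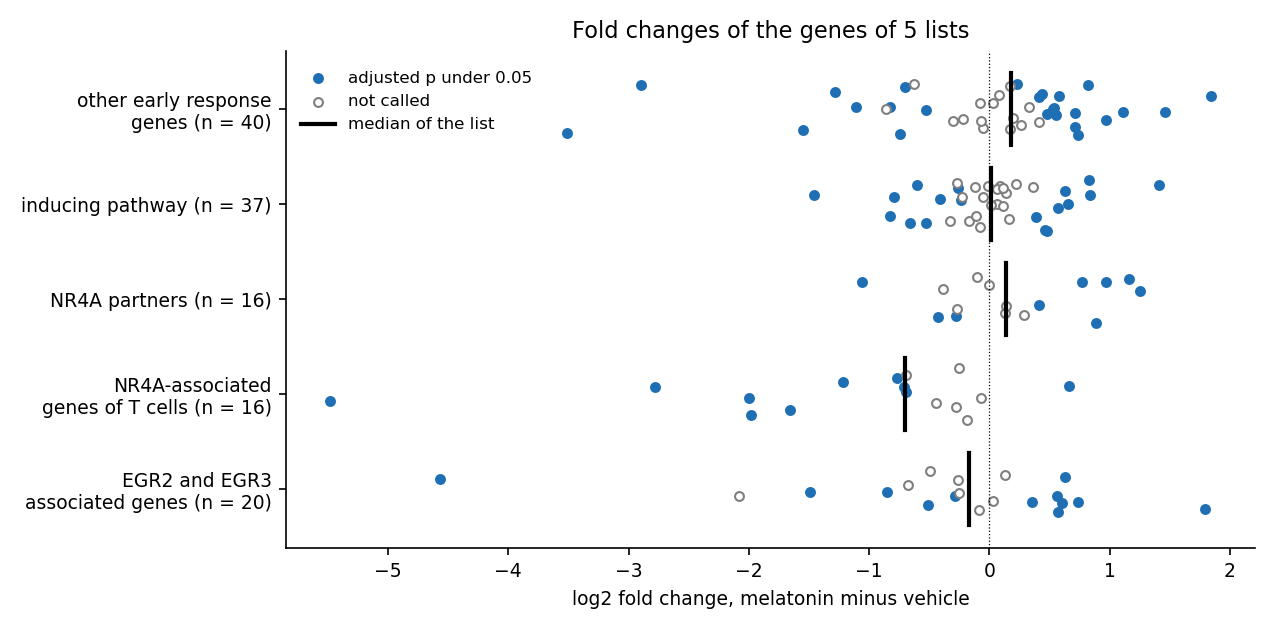
Log2 fold change (melatonin minus vehicle, horizontal axis) of every gene tested in the 5 lists, filled where the adjusted p was under 0.05, with the median of each list as a black bar. The medians lie between -0.70 in the NR4A-associated genes of T cells and 0.18 in the other early response genes.

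**Figure D5:**
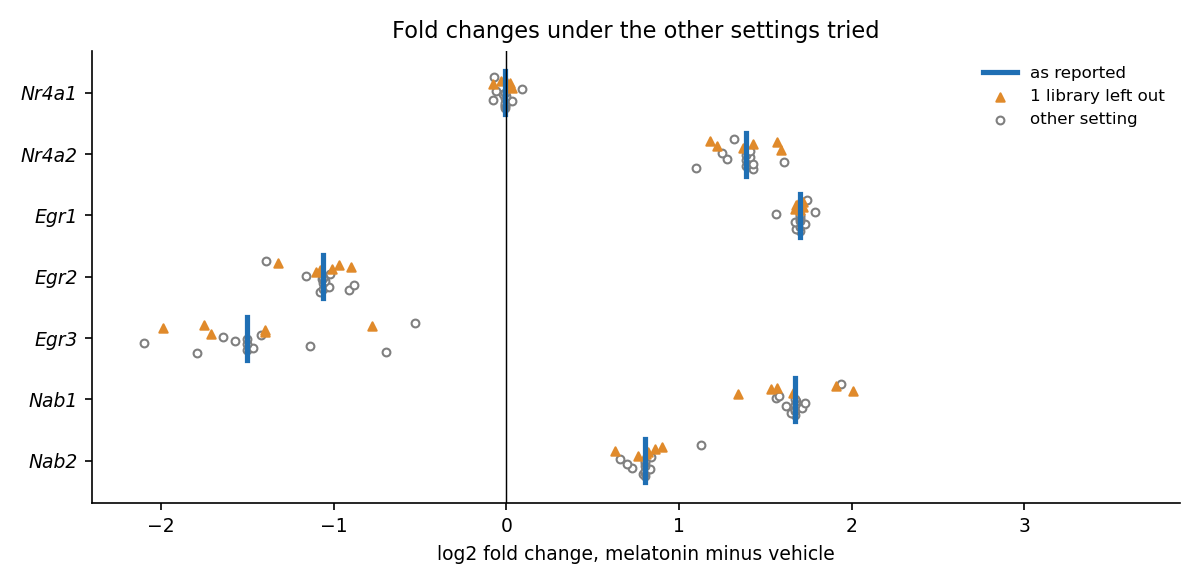
Log2 fold changes of the 7 genes (horizontal axis) as reported (blue bar), with 1 library left out (orange triangles) and under the other settings tried (open circles). Egr1 stays between 1.56 and 1.79, whereas Egr3 ranges from -2.10 to -0.53.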

How the data were processed

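Bulk RNA was sequenced from 3 melatonin and 3 vehicle samples of aILC2s on a NextSeq 500 with a SMARTer Ultra Low kit, which does not keep strand. The labels give an RNA input of 10 ng and the methods 10 pg. The authors trimmed reads in Partek Flow 12.9.0 (Phred 35, minimum 25 bp), aligned them with STAR 2.7.8.a to mm39, quantified Gencode M33 genes by Partek E/M, removed genes with fewer than 10 counts and scaled by the DESeq2 median ratio, so the deposited values are a signal, here normalized counts. The value of 1 read was found from the spacing of the values. At a tolerance of 0.01, 63.4% to 66.0% of a library's values were then whole reads, so no count test was the main test, and limma voom on the estimated counts was run only as an alternative.

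limma 3.58.1 (R 4.3.3, eBayes with trend) compared the groups on log2(normalized count + 1) for the 14419 genes that reached 10 in any sample, with Benjamini-Hochberg adjustment and a threshold of 0.05. Log2 fold changes are on that scale, which understates those of low genes, while changes given as N-fold are ratios of mean normalized counts, and the script was tested on simulated data. Ratios of members were compared by two-sided exact permutation tests. Levels per kilobase used the canonical transcript of GENCODE M39 on GRCm39, the build of the files. RefSeq promoter windows are from GRCm38.p6. Named genes are the members, the 2 most abundant called genes and the called gene of largest fold in each direction of each list (mean of at least 50), and the 3 genes most like the most abundant NR4A and EGR member. Some genes that this rule names are not reported here. The members and lists were chosen with earlier results of these data known. Other tools were scipy 1.17.1, matplotlib 3.10.9, numpy 2.4.6 and pandas 2.3.3. Alternatives covered pseudocounts, filters, scalings, test variants, length and GC corrections, thresholds and each library left out.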

Additional observations from a re-analysis of the deposited data

How the results depend on the processing

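Nr4a2, Egr1, Nab1 and Nab2 kept their direction and their call in every alternative in which they were tested at the 0.05 threshold, and Egr2 likewise stayed lower. These include melatonin replicate 1 alone against vehicle, where the lone sample is assumed to vary like the vehicle libraries. The log2 fold changes ranged from 1.1 to 1.61 for Nr4a2, 1.56 to 1.79 for Egr1, -1.39 to -0.88 for Egr2, 1.34 to 2.01 for Nab1 and 0.63 to 1.13 for Nab2. With a minimum log2 fold change of 1, 3 members were called higher, without Nab2. Leaving out 1 library at a time gave 4 members called higher each time and 1 to 2 lower. The second was Egr3, called without melatonin replicate 1 (-1.99) and with sample weights (-2.10, 2 members lower). With the filter raised to a mean of 100 normalized counts, 0 members were called lower, because Nr4a2, Egr2 and Egr3 are then not tested. The log2 fold change of Nr4a1 changed sign with scaling to the same total (0.03), the GC correction (0.09) and without single libraries (-0.08 to 0.03), and was never called. At an adjusted p under 0.01, 2188 genes were higher and 2267 lower, and with a minimum log2 fold change of 1 in either direction, 866 and 1392, since those thresholds are stricter. The lists together then had 7 genes higher and 15 lower, against 39 and 35. With summed exon length, an alternative chosen after seeing the data like the comparison of melatonin replicate 1 alone, the share of Nr4a1 was 91.81% with vehicle and 80.39% with melatonin, and that of Egr1 85.99% with vehicle. Deviations of same-numbered samples correlated at -0.054, 0.006 and -0.048, and those of differently numbered samples at -0.064 to 0.113. No pairing by number was thus detected, which with 3 samples per group does not exclude it. For replicates 2 and 3 the sex-linked transcripts differ between the same-numbered vehicle and melatonin samples. With the replicate block 3160 genes were higher and 3278 lower, with the same 4 and 1 members. At 1 to 19 reads per library, Egr3 was near the limit of detection. The effect of sequencing depth on its call was not tested.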
